A study of Arabidopsis thaliana with 32 samples.

Results

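Genes abundant in the shoot and almost undetected on root ribosomes were described in Arabidopsis thaliana. The set was chosen by the deposited TPM values, which express the transcripts of a gene per unit of its length, scaled to the same total in each library. A gene belonged to it when its mean was at most 0.5 TPM in the 3 ribosome-bound libraries of normally grown roots and at least 50 TPM in the 3 total RNA libraries of normally grown shoots. Genes of the chloroplast and mitochondrial genomes were dropped. The rule gave 98 genes of the 27655 in the table, and another 2447 nuclear genes reached 50 TPM in the same shoot libraries. All plants carried p35S:HF-RPL18, in which the viral 35S promoter drives a tagged copy of ribosomal protein L18, so the captured ribosomes are those of cells where this promoter is active. They were grown in hydroponic culture for 6 weeks under 10 h of light and 14 h of dark and then moved for 1 day to medium without magnesium (MgD), where sodium sulfate took the place of magnesium sulfate, or to normal medium (CK). Ribosome-bound RNA was obtained by translating ribosome affinity purification (TRAP) and was sequenced beside total RNA, from roots and from shoots, with 3 libraries in each of 8 groups. The replicates are described as independent, without saying that they are separate plants, so p-values here cover the scatter among libraries alone, which could be technical.

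Leaves hold mature chloroplasts, an outer wax-covered cuticle and a standing investment in defence proteins, and many genes behind these features are known to be little used in roots. In chloroplasts, the NDH complex passes electrons from ferredoxin back to the plastoquinone pool and works in a supercomplex with photosystem I. Wax synthesis starts with the elongation of fatty acids in epidermal cells, and jasmonate synthesis starts with a lipoxygenase in the chloroplast. TRAP RNA stands for messages on ribosomes and total RNA for all messages of the tissue, so a ratio of the 2 compares how a gene is represented in each pool.

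Library totals ranged from 6147531 counts in Root Total MgD replicate 3 to 41472378 counts in Shoot TRAP MgD replicate 1. The 11 root markers checked, among them Casparian strip and root hair genes, summed to 428 to 1293 TPM in root total MgD libraries and 515 to 612 TPM in root total CK libraries, against at most 4.40 TPM in any shoot library. In root TRAP libraries they summed to less, 37.5 to 169 TPM under MgD and 51.9 to 241 TPM under CK. The root hair genes RHD6 and EXPA7 averaged 0.0634 and 0.0871 TPM in Root TRAP CK and 9.74 and 9.33 TPM in Root Total CK libraries. A low root TRAP level thus does not by itself show absence from the root. The 32 photosynthesis genes checked summed to at least 149700 TPM in every shoot library. In the submitters' list of read files all shoot TRAP libraries carry one sequencing lane label and all other libraries another, so in the shoot RNA type and lane label cannot be told apart. For Root Total MgD replicate 3 the deposited count and TPM columns came from different numbers of reads, and its levels here were recomputed from the counts.

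By their annotated products, 12 of the 98 genes belong to the NDH complex and its supercomplex with photosystem I, 16 to chloroplast functions and carbon metabolism, 12 to the cuticle, cell wall and lipid transfer, 14 to defence and jasmonate, 9 to regulators and signalling, and 5 to transport, iron reduction and dehydration. The other 30 are uncharacterized or fit none of these. The groups were drawn by hand after the members were known. The highest level in Shoot Total CK libraries belonged to AT2G10940, a lipid-transfer family protein, with 1743, 1929 and 1527 TPM. It was followed by AT1G23130, of a lipid transport superfamily, with 955, 1180 and 902 TPM. The carbonic anhydrase CA2 (AT5G14740), which interconverts carbon dioxide and bicarbonate, had 869.9, 880.3 and 909 TPM. These 3 genes led the set in the mean of these libraries. Next came the thionin AT1G66100, a small defence peptide, with a mean of 546 ± 16.6 TPM (SD, n = 3), and GER3 (AT5G20630), a germin-like protein, with 369 ± 49.8 TPM. KCS6 (AT1G68530), an elongase for wax precursors, averaged 347 ± 56.0 TPM. LOX2 (AT3G45140), the lipoxygenase of jasmonate synthesis, averaged 301 ± 78.9 TPM, and GPRI1 (AT2G20570), better known as GLK1, a transcription factor for chloroplast development, 296 ± 27.6 TPM. The remaining genes of the top 12 were ACD6, a membrane ankyrin protein that acts in defence (278 TPM), the aldolase FBA5 (236 TPM), the uncharacterized AT1G76960 (210.5 TPM) and the dehydration-responsive caleosin RD20 (205 TPM). Members were selected on these levels and on those of Root TRAP CK libraries, which are given as a description.

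The thresholds cut through a continuum. Just inside the shoot limit stood RLM3 (50.2 TPM), RAB18 (50.2 TPM) and AT2G36630 (50.6 TPM), and just outside it PPT2 (49.7 TPM), FADA (49.3 TPM) and ABCG19 (48.4 TPM). At the root limit, AOC2 (0.478 TPM), AT2G05540 (0.455 TPM) and CYP706A6 (0.435 TPM) were the nearest inside, and ASG8 (0.503 TPM), OEP6 (0.520 TPM) and the NDH subunit NdhO (0.528 TPM) the nearest outside. For the uncharacterized AT2G34655, 1 library decided the membership. It had 388, 52.7 and 45.7 TPM in the 3 Shoot Total CK libraries, so replicate 1 stood far above the others and the mean was 162 TPM. PR1, with a mean of 62.2 TPM, likewise reached the shoot limit only with replicate 1, by the values given further below.

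**Figure D1:**
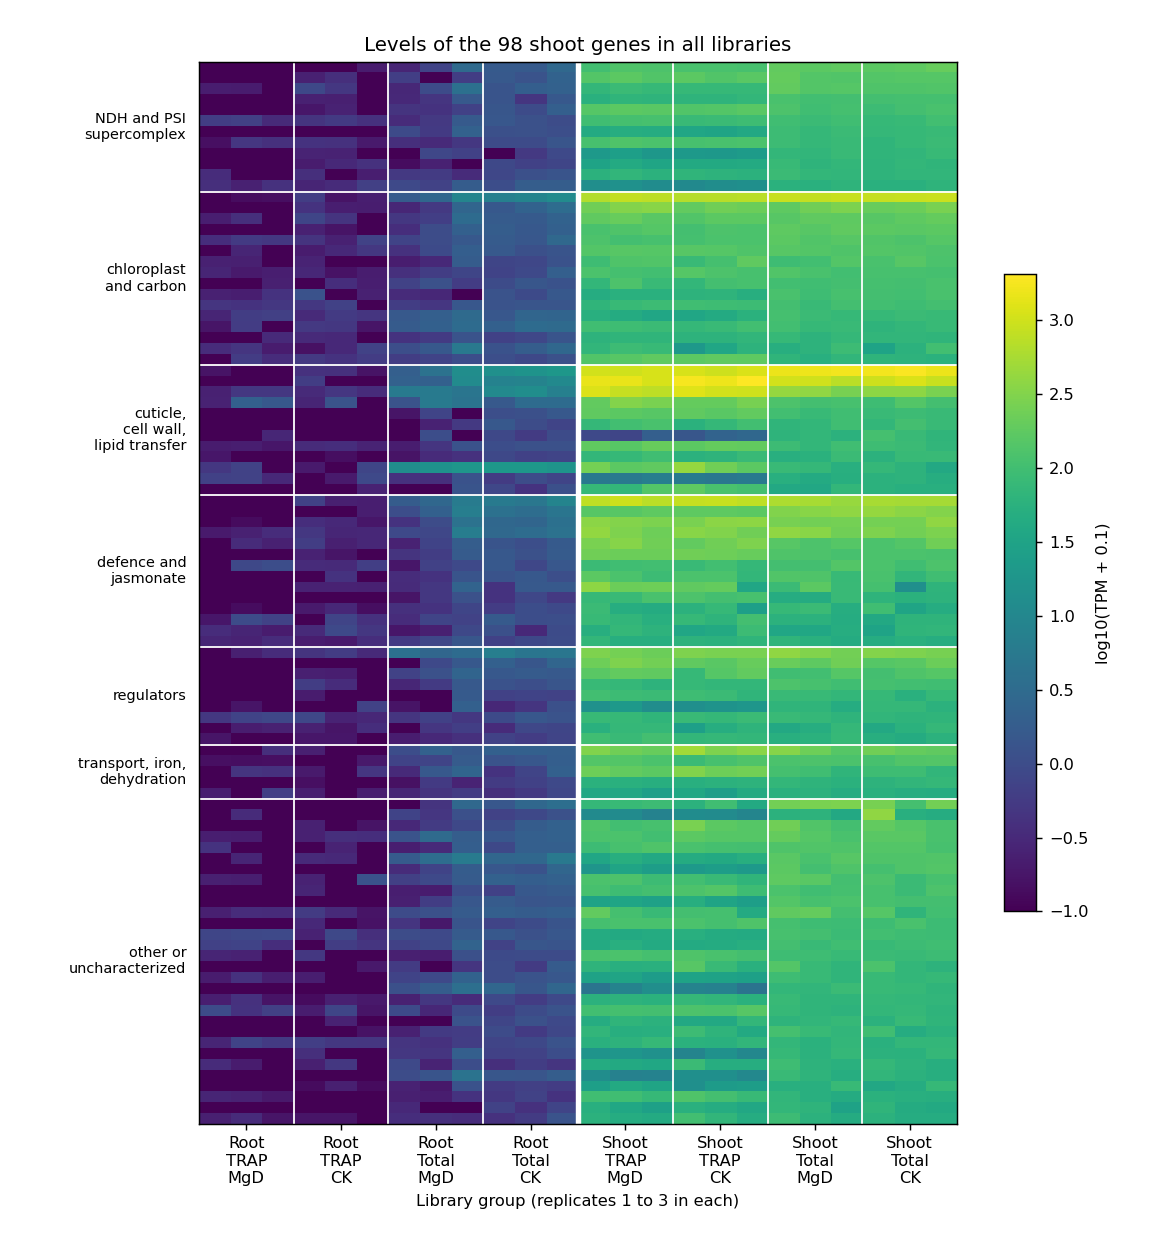
Levels of the 98 genes as log10(TPM + 0.1), with 1 row per gene ordered by function group and 1 column per library. The root TRAP libraries (left) are near the bottom of the scale for all rows. The root total libraries lie slightly above it, with EXPA11 and AT2G10940 among the brightest rows. The shoot libraries (right) are high throughout apart from a few rows that are low in TRAP RNA.

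The Root TRAP MgD libraries were not used to choose the genes. In them, 91 of the 98 genes (92.9%) again averaged at most 0.5 TPM, against 18 of the 2447 other abundant shoot genes (0.736%). The median over the set was 0.0610 TPM, against 96.8 TPM over those other genes. By the rule, all of those other genes exceeded 0.5 TPM in Root TRAP CK libraries. Both contrasts were therefore largely set in advance by the rule and are a description. Counts of 0 in all 3 libraries were recorded for 38 members. In a single library a count of 0 was taken to allow up to 3 counts, or 0.111 to 0.140 CPM (counts scaled to the library total). This covers only the error of counts that are independent of each other. Most low counts were even, as when mates are counted one by one, so the true limit is higher. The set as a whole summed to 9.83, 16.8 and 13.01 TPM in Root TRAP MgD libraries and 18.3, 16.7 and 14.1 TPM in Root TRAP CK libraries, and to between 13890 and 15740 TPM in each shoot library. Since tissue samples mix many cell types, fewer cells that use a gene and less of its RNA per cell cannot be told apart. The 1 member to reach 2 TPM was AT2G05540, a glycine-rich protein, with 0.159, 2.01 and 1.42 TPM in Root TRAP MgD libraries and 0.177, 1.19 and 0 TPM in Root TRAP CK libraries. Its replicates differed more within each group than the groups did from each other.

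In shoots after 1 day without magnesium, the set was divided between genes that were more and genes that were less represented on ribosomes than in total RNA. The wax genes KCS6 and CER1, the expansin EXPA11, a sugar exporter and an alpha carbonic anhydrase were higher in TRAP RNA. Lower were 8 of the 12 genes of the NDH group, 15 of the 30 uncharacterized or ungrouped genes and, with the lowest ratio of all, the lipid-transfer family gene AT4G22490. The edgeR quasi-likelihood test across all genes called 53 of the 98 genes (Benjamini-Hochberg adjusted p under 0.05), 17 higher and 36 lower in TRAP RNA. Of all 19341 genes tested, 45.8% were called, 22.1% higher and 23.7% lower. An unadjusted p under 0.05 was reached by 60 members, against 52.4% of all genes. By TPM, 24 members had every TRAP library above every total library and 37 had every one below, against 28.4% and 26.0% of all genes. Among the called members, 5 were at least 2-fold higher and 21 at least 2-fold lower. The same counts were 713 and 2263 among all 19341 genes tested, and 167 and 279 among the 2447 other abundant nuclear genes. The median log2 fold change was -0.20 over the 98 genes, -0.01 over all genes tested and 0.14 over the 2447 other abundant nuclear genes. Under CK the median over the 98 was -0.20, with 23 members above and 32 below without overlap, against 30.5% and 23.1% of all genes. These CK values are a description, because those total RNA libraries chose the set. The MgD libraries did not choose it, but the rule asked for high shoot total RNA and low root TRAP RNA. Part of the lean to lower calls under MgD may follow from that choice, which was not tested. Without replicate 2 of each group 36 genes were called, 9 higher and 27 lower.

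**Figure D2:**
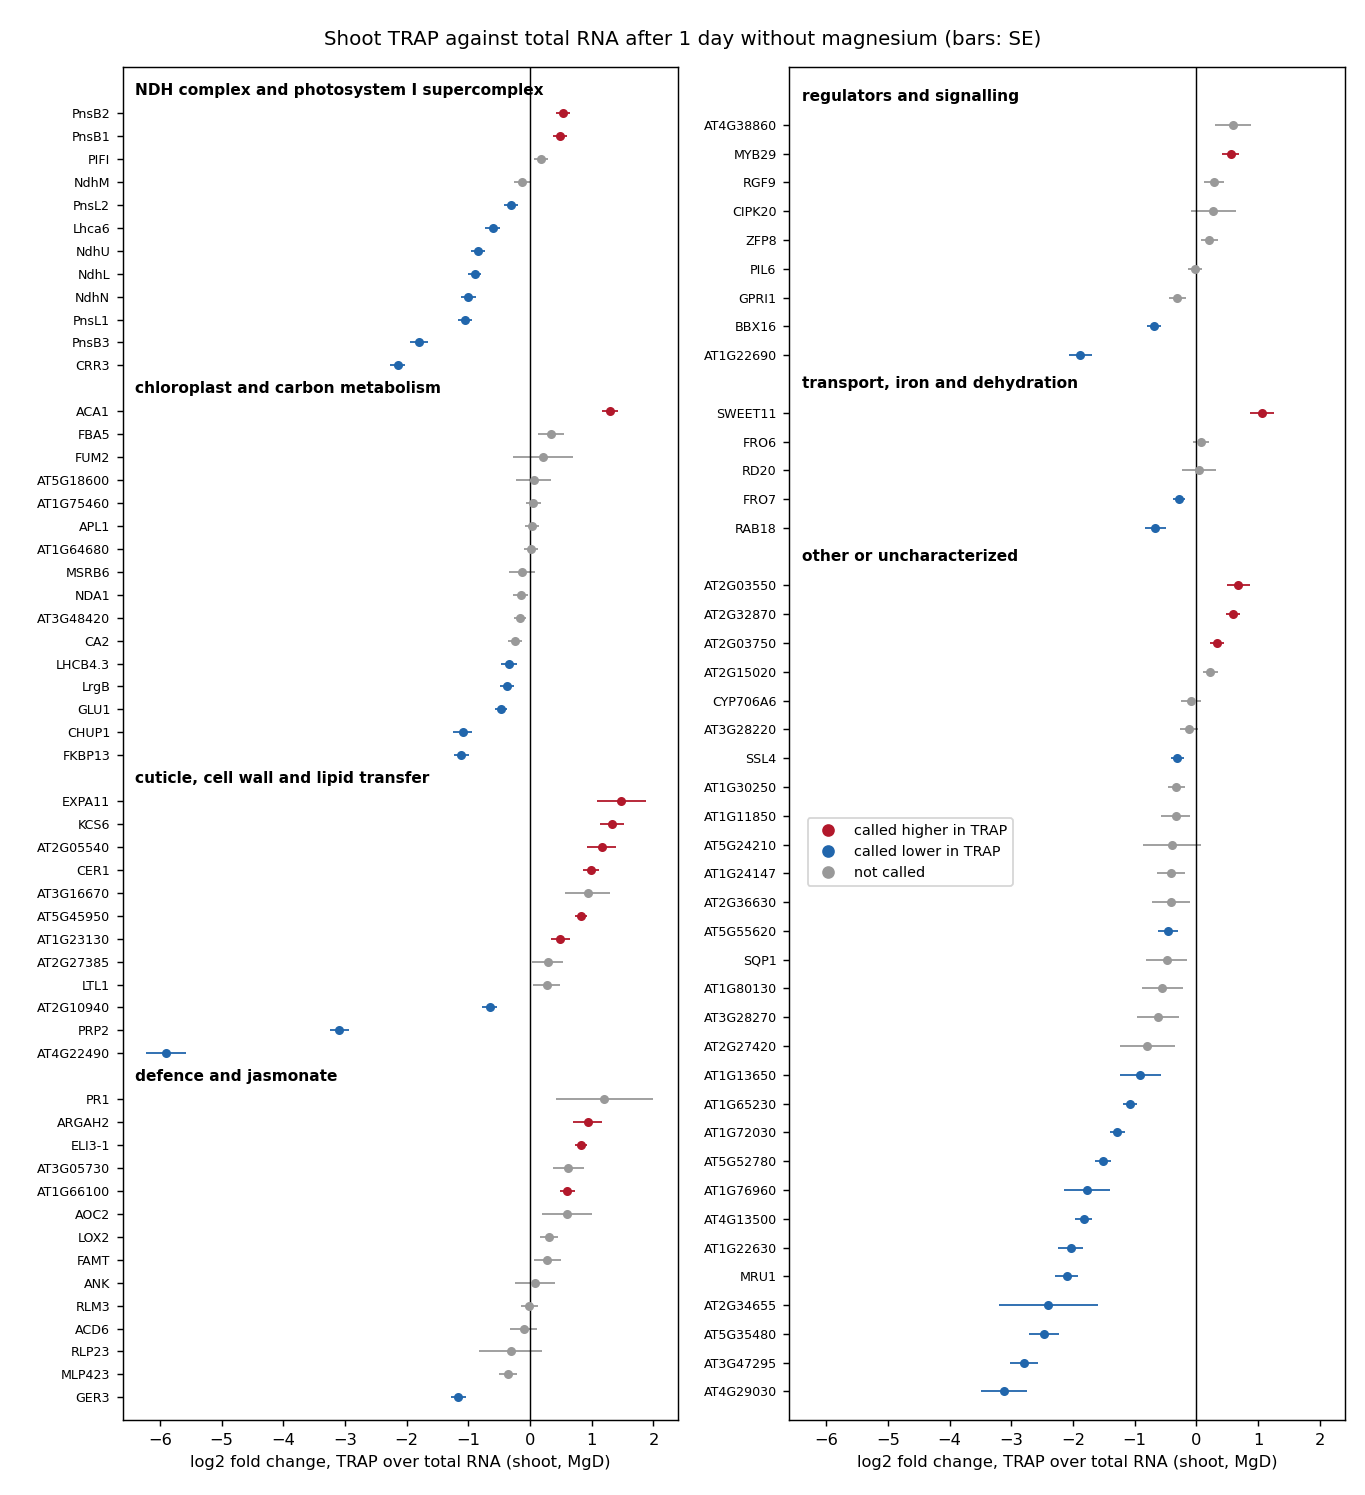
Log2 fold change of shoot TRAP over shoot total RNA under MgD for 97 of the 98 genes (the other is not reported here), by function group, with bars of 1 SE (3 libraries in each group). Red points were called higher in TRAP RNA and blue points lower by edgeR, and 9 of the 12 cuticle and cell wall genes lie to the right of 0 while 9 of the 12 genes of the NDH group lie to the left, called or not.

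Among the NDH group, 2 of 12 genes were higher in TRAP RNA and 8 were lower, against 22.1% and 23.7% of all genes tested. CRR3 (AT2G01590), a protein needed for the NDH complex to accumulate, had 13.6, 14.9 and 12.5 TPM in TRAP MgD libraries and 57.3, 55.0 and 64.1 TPM in total MgD libraries. It was 4.43-fold lower in TRAP RNA (log2 fold change -2.15 ± 0.12 SE, edgeR adjusted p = 7.33e-10), with no overlap between the groups. PnsB3, a subunit of the complex, followed with 20.2, 27.0 and 19.0 TPM in TRAP and 71.7, 69.7 and 83.7 TPM in total RNA, and was 3.50-fold lower. PnsL1 (-1.06), NdhN (-1.00), NdhL (-0.90), NdhU (-0.85) and PnsL2 (-0.30) were also lower by these log2 fold changes. So was Lhca6 (-0.60), the antenna protein that links NDH to photosystem I and the most abundant of the group, with 102, 135 and 128 TPM in TRAP and 192, 171 and 179 TPM in total MgD libraries. PnsB1 and PnsB2 went the other way. PnsB1 had 151, 168 and 163 TPM in TRAP MgD libraries and 128, 97.4 and 110.5 TPM in total MgD libraries (0.48 on the log2 scale, edgeR adjusted p = 0.002), and PnsB2 had 114, 132 and 123 TPM and 89.6, 74.2 and 84.3 TPM in the same order (0.53, edgeR adjusted p = 9.90e-04). For each of the pair all TRAP libraries were above all total libraries. Their genes were the longest of the group, at 1.04 and 1.501 times the length of the median gene. NdhM (-0.13) and PIFI (0.17) were not called.

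Beyond the members, 16 nuclear genes carry a RefSeq symbol of an NDH subunit (NdhL to NdhU, PnsB or PnsL), a list drawn up after the set was seen. It holds 9 members, 4 genes above the root limit, 2 below the shoot limit and 1 that fails both. Of the 16, 2 were higher in TRAP RNA under MgD and 10 were lower, against 22.1% and 23.7% of all genes tested. PnsB4 (-0.52), NdhO (-0.81), PnsB5 (-0.72) and NdhT (-0.41 on the log2 scale) were lower beside the members already named, and NdhS, PnsL3 and PnsL4 were not called.

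Of the 12 cuticle and cell wall genes, 6 were called higher in TRAP RNA and 3 lower, against 22.1% and 23.7% of all genes. The other 3 were not called. KCS6 had 1220, 857 and 760.1 TPM in TRAP MgD libraries, against 434, 389 and 269.8 TPM in total MgD libraries. The lowest TRAP library stood well above the highest total library, and the gene was 2.51-fold higher (1.33 ± 0.20 SE, edgeR adjusted p = 1.27e-04). CER1 (AT1G02205), which forms wax alkanes, had 179, 155 and 202 TPM in TRAP and 91.6, 72.8 and 97.8 TPM in total MgD libraries and was 1.99-fold higher (0.99 ± 0.13 SE, edgeR adjusted p = 1.08e-05). EXPA11 (AT1G20190), an expansin that loosens cell walls, had the largest rise of the set, with 257, 168 and 179 TPM in TRAP and 84.0, 73.8 and 51.8 TPM in total MgD libraries (2.79-fold higher, 1.48 ± 0.39 SE, edgeR adjusted p = 0.0137). Its libraries did not overlap, although the TRAP replicates differed among themselves more than those of CER1. AT2G05540 was 2.24-fold higher, with 188, 326 and 282 TPM in TRAP and 127, 107 and 115 TPM in total MgD libraries (edgeR adjusted p = 0.00196). The lipase AT5G45950 (0.82) and AT1G23130 (0.49) were called higher too.

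The same group held the lowest ratio of the set. AT4G22490, a lipid-transfer family protein, had 0.811, 0.702 and 1.90 TPM in TRAP MgD libraries, against 64.8, 71.7 and 58.9 TPM in total MgD libraries. Every TRAP library was below 2 TPM and every total library above 58 TPM, a 59.5-fold difference (-5.89 ± 0.32 SE, edgeR adjusted p = 3.46e-08). PRP2 (AT2G21140), a proline-rich cell wall protein, had 5.14, 5.44 and 6.91 TPM in TRAP and 51.8, 42.7 and 50.4 TPM in total MgD libraries and was 8.52-fold lower (-3.09 ± 0.15 SE, edgeR adjusted p = 1.55e-10). AT2G10940, the most abundant member, was 1.58-fold lower, with 1020, 1006 and 1141 TPM in TRAP and 1504, 1583 and 1754 TPM in total MgD libraries. Under CK these 3 genes had log2 fold changes of -5.51, -3.41 and -0.80, given as a description.

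Among the 16 chloroplast and carbon metabolism genes, 1 was higher and 5 were lower, against 22.1% and 23.7% of all genes tested. The other 10 were not called. The higher gene was ACA1 (AT3G52720), alpha carbonic anhydrase 1, with 138, 154 and 179.8 TPM in TRAP and 65.9, 51.8 and 69.5 TPM in total MgD libraries, a 2.46-fold difference (1.30 ± 0.13 SE, edgeR adjusted p = 3.71e-07) with no overlap. The other carbonic anhydrase of the set, CA2, had 659, 813 and 776 TPM in TRAP and 887, 814 and 896 TPM in total MgD libraries and was not called (-0.24 ± 0.11 SE, edgeR adjusted p = 0.0719). Lower in TRAP RNA were FKBP13, a peptidyl-prolyl isomerase of the thylakoid lumen (-1.11), CHUP1, which positions chloroplasts along actin filaments (-1.09), the glutamate synthase GLU1 (-0.47), LrgB (-0.38) and the antenna protein LHCB4.3 (-0.34), all log2 fold changes. FUM2, a fumarase, and APL1, a subunit of the starch synthesis enzyme ADP-glucose pyrophosphorylase, were at 0.21 ± 0.49 and 0.04 ± 0.11 SE and were not called.

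In the defence and jasmonate group 3 of 14 genes were higher and 1 was lower, against 22.1% and 23.7% of all genes. The other 10 were not called. ARGAH2 (AT4G08870), an arginase, had 273, 340.0 and 237 TPM in TRAP and 158, 129.6 and 147 TPM in total MgD libraries and was 1.91-fold higher (0.93 ± 0.23 SE, edgeR adjusted p = 0.00656). ELI3-1 (AT4G37980), a cinnamyl alcohol dehydrogenase family protein, had 241, 221 and 218 TPM in TRAP and 131, 126 and 115 TPM in total MgD libraries, 1.77-fold higher (0.83 ± 0.10 SE, edgeR adjusted p = 2.91e-06). Neither gene overlapped between the groups, and the thionin AT1G66100 was higher as well (0.61). GER3 was the lower gene, with 158, 154 and 177 TPM in TRAP and 318, 344 and 399.7 TPM in total MgD libraries (2.24-fold lower). PR1 (AT2G14610), a classical salicylate-responsive protein, had 377, 218 and 226 TPM in TRAP and 87.7, 170.5 and 82.3 TPM in total MgD libraries. The groups did not overlap, yet the test did not call it (1.20 ± 0.79 SE, edgeR adjusted p = 0.252). LOX2 and AOC2, the lipoxygenase and the cyclase of jasmonate synthesis, were at 0.31 ± 0.14 and 0.60 ± 0.41 SE on the log2 scale and were not called.

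Among the 9 regulators, MYB29, a regulator of aliphatic glucosinolate synthesis, was higher (0.56) and BBX16 (-0.69) and the gibberellin-regulated family protein AT1G22690 (-1.88) were lower. GPRI1 had 305, 258 and 223 TPM in TRAP and 392, 312 and 244 TPM in total MgD libraries, which overlapped, and was not called (-0.31 ± 0.14 SE, edgeR adjusted p = 0.0767). Of the 5 transport, iron and dehydration genes, SWEET11 (AT3G48740), a sucrose exporter that feeds phloem loading, was 2.09-fold higher, with 230.0, 186 and 170.3 TPM in TRAP and 108, 98.3 and 65.8 TPM in total MgD libraries (1.06 ± 0.19 SE, edgeR adjusted p = 6.63e-04). The dehydrin RAB18 (-0.66) and the ferric reductase FRO7 (-0.29) were lower, and RD20 (0.04) and FRO6 (0.07) were not called. FRO6 and FRO7 are neighbouring genes of one family, and the sources used here do not say how reads matching several genes were counted.

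Of the 30 uncharacterized or ungrouped genes, 15 were called lower in TRAP RNA and 3 higher, against 23.7% and 22.1% of all genes. The other 12 were not called. AT4G29030 had 4.51, 8.53 and 13.5 TPM in TRAP and 70.3, 67.4 and 85.2 TPM in total MgD libraries, 8.65-fold lower (-3.11 ± 0.38 SE, edgeR adjusted p = 9.97e-05). AT3G47295 had 12.96, 7.77 and 8.07 TPM in TRAP and 83.6, 62.7 and 48.6 TPM in total MgD libraries, 6.94-fold lower (-2.80 ± 0.22 SE, edgeR adjusted p = 5.32e-08). In both genes the groups were far apart. The adjacent genes AT5G35480 and MRU1 were alike in this ratio. AT5G35480 had 17.6, 33.3 and 24.7 TPM in TRAP and 170.4, 105 and 135 TPM in total MgD libraries (-2.46 ± 0.24 SE), and MRU1 had 16.9, 18.2 and 15.2 TPM and 77.8, 59.4 and 73.3 TPM in the same order (-2.11 ± 0.18 SE). AT2G34655 had 11.4, 11.9 and 8.06 TPM in TRAP and 59.0, 61.6 and 40.4 TPM in total MgD libraries. Its fold change was -2.40 ± 0.80 SE with an edgeR adjusted p of 0.0378. The model behind this error includes the Shoot Total CK library of 388 TPM.

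Gene length moved with the TRAP-to-total difference. Relative lengths were recovered from the ratio of counts to TPM and are given relative to the median gene of the table. Of the 21 members called at least 2-fold lower in TRAP RNA, 20 were shorter than the median gene, with a median relative length of 0.541. The exception was CHUP1, at 2.69. Of the 5 members called at least 2-fold higher, 3 were also shorter (EXPA11, SWEET11 and AT2G05540). The 17 members called higher had a median of 1.04, with 8 of them shorter than the median gene. The 45 that were not called had a median of 0.960, with 23 of them shorter. Over the whole set the median was 0.816, and 59 of the 98 members were shorter. Across the 98 members the log2 fold change under MgD and the log of relative length had Pearson's r = 0.41 and Spearman's rho = 0.37, and across all 19341 genes r = 0.24 and rho = 0.13. These are descriptions, since the genes share the same libraries. The part of length, or of the rule that chose the genes, in the calls was not tested.

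**Figure D3:**
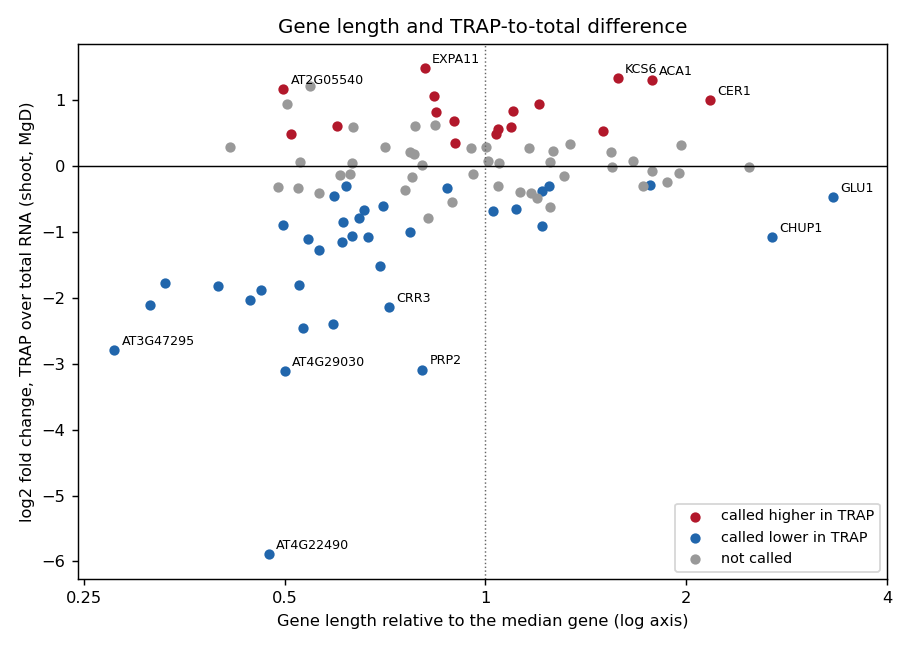
Log2 fold change of shoot TRAP over total RNA under MgD against gene length relative to the median gene (log axis), 1 point per member. The called falls of at least 2-fold lie to the left of the dotted line at the median length, apart from CHUP1 at 2.69, while the genes called higher lie on both sides of it, with 8 of 17 to the left.

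After 1 day without magnesium no member changed by the test in shoot TRAP RNA. edgeR called 0 of the 98, as it called 0.0% of the 19341 genes tested, and 14 members had an unadjusted p under 0.05, against 7.41% of all genes. DESeq2 and limma likewise called 0 members, with 17 and 14 at an unadjusted p under 0.05. The largest differences upward were those of FUM2, PR1, AT1G13650 and MRU1. FUM2 had 68.7, 90.9 and 80.2 TPM in TRAP MgD libraries and 20.03, 35.8 and 61.0 TPM in TRAP CK libraries. The MgD libraries were all above the CK libraries (1.06 ± 0.50 SE on the log2 scale, edgeR unadjusted p = 0.064). PR1 had 377, 218 and 226 TPM in TRAP MgD and 180.4, 193 and 35.5 TPM in TRAP CK libraries (0.97 ± 0.78 SE), also without overlap and with a wide spread inside each group. AT1G13650 had 26.8, 42.1 and 32.5 TPM in TRAP MgD and 14.0, 22.9 and 24.96 TPM in TRAP CK libraries (0.73 ± 0.33 SE), again without overlap. MRU1 was at 16.9, 18.2 and 15.2 TPM in TRAP MgD and 8.61, 15.2 and 9.62 TPM in TRAP CK libraries (0.58 ± 0.19 SE), where replicate 2 of CK was level with the lowest MgD library.

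The largest differences downward in shoot TRAP RNA were those of AT4G22490, AT2G27420, SQP1 and RD20. RD20 had 313, 239.8 and 205 TPM in TRAP MgD and 508, 302 and 371 TPM in TRAP CK libraries (-0.66 ± 0.28 SE, edgeR unadjusted p = 0.0404), and these overlapped. SQP1, a squalene epoxidase-like enzyme, had 134, 103 and 114 TPM in TRAP MgD and 283, 171 and 149.8 TPM in TRAP CK libraries (-0.81 ± 0.34 SE), without overlap. AT2G27420, a cysteine proteinase, was at 62.8, 52.5 and 53.5 TPM in TRAP MgD and 158, 83.7 and 55.4 TPM in TRAP CK libraries (-0.85 ± 0.45 SE). AT2G27420 overlapped between the groups, and CK replicate 1 held the highest value of both genes. AT4G22490 was low in all TRAP libraries, with 0.811, 0.702 and 1.90 TPM under MgD and 1.33, 2.26 and 2.62 TPM under CK (-0.85 ± 0.40 SE). In all, 7 members had every TRAP MgD library above every TRAP CK library and 5 had every one below, against 5.36% and 4.34% of all genes tested.

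In shoot total RNA edgeR also called 0 of the 98 members, with 0 at an unadjusted p under 0.05, against 0.0% of all genes called and 1.84% at an unadjusted p under 0.05. DESeq2 and limma called 0 members, each with 1 at an unadjusted p under 0.05. By TPM, 2 members had every MgD library above every CK library and 0 had every one below, against 6.6% and 1.95% of all genes. The CK libraries of this comparison chose the members, so nothing is read from these counts. PR1 had 87.7, 170.5 and 82.3 TPM in total MgD and 109, 14.2 and 63.2 TPM in total CK libraries (0.82 ± 0.79 SE). AT5G24210, a hydrolase family protein, had 178, 197 and 105 TPM in total MgD and 151, 65.9 and 101 TPM in total CK libraries (0.53 ± 0.47 SE), and both genes overlapped between the groups. AT1G24147 (0.35 ± 0.23 SE) and AT1G76960 (0.31 ± 0.37 SE) came next. Downward, AT2G34655 had 59.0, 61.6 and 40.4 TPM in total MgD libraries, close to CK replicates 2 and 3, and its -1.66 ± 0.75 SE rests on that library. AOC2 had 35.0, 36.4 and 48.5 TPM in total MgD and 32.0, 65.8 and 68.2 TPM in total CK libraries (-0.54 ± 0.41 SE), and LOX2 had 267, 245 and 256 TPM and 255, 256 and 392 TPM in the same order (-0.31 ± 0.14 SE). AT4G22490 was at -0.47 ± 0.23 SE. The interaction of RNA type and treatment was called for 0 members by edgeR, DESeq2 and limma, against 0.0% of all genes, with 2, 4 and 0 members at an unadjusted p under 0.05 (3.95% of all genes by edgeR).

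**Figure D4:**
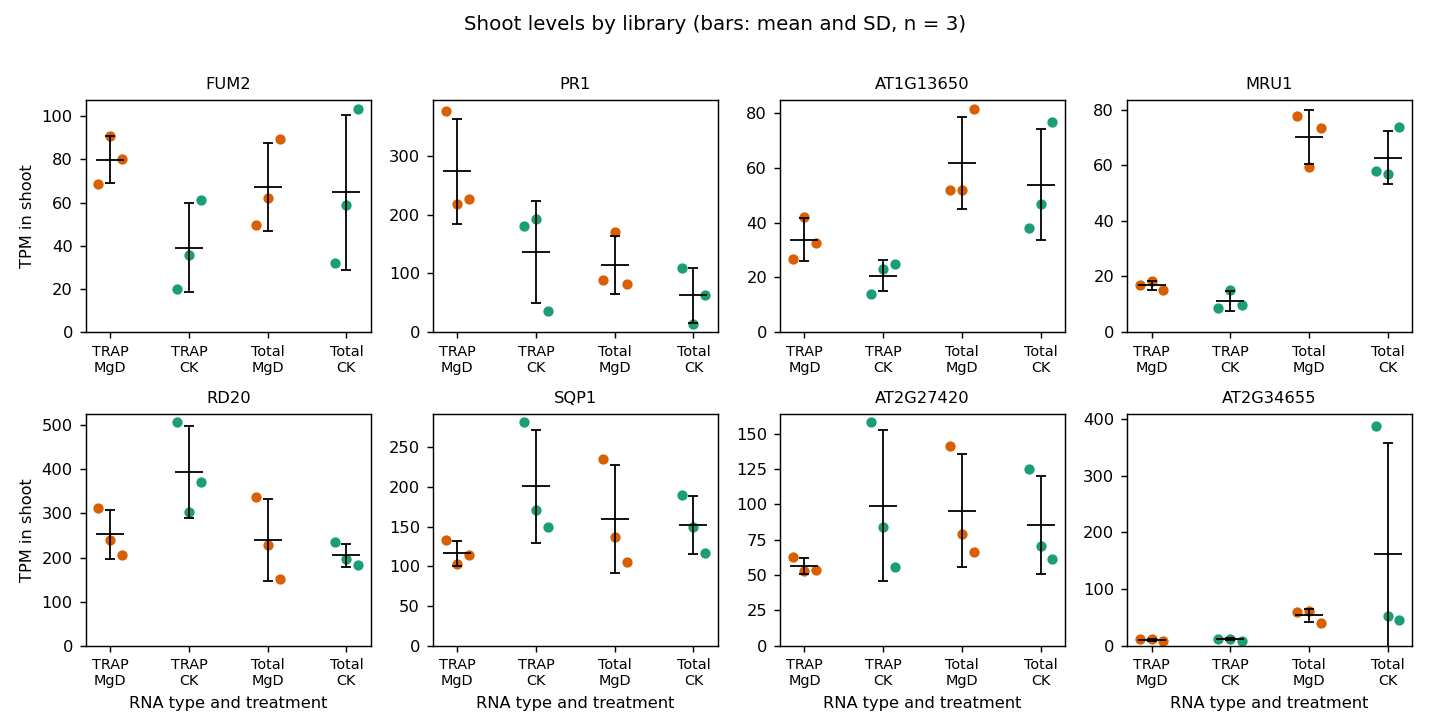
Shoot TPM of 8 members in each library, TRAP RNA left of total RNA and MgD (orange) left of CK (green), with the mean and SD of 3 libraries. FUM2, PR1 and AT1G13650 are higher in all TRAP MgD than TRAP CK libraries, SQP1 is lower in all of them, and the AT2G34655 mean in total CK RNA rests on 1 library of 388 TPM, where the SD bar is cut at 0.

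Members differed in how steady they were between replicates. The coefficient of variation within a shoot group, averaged over the 4 shoot groups, had a median of 14.5% over the 98 genes. It was under 10% for 33 genes and over 30% for 10. CA2 was among the steadiest at 5.42%, with a 1.12-fold range over the 6 shoot total libraries. PR1 was the most variable at 54.2%, with a 12.0-fold range, followed by AT2G34655 at 44.7%, RLP23 at 42.9%, AT5G24210 at 39.1% and FUM2 at 38.2%. Of these, PR1 and the receptor-like protein RLP23 act in immunity.

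Root total RNA held more of these messages than root TRAP RNA, at around 1.16% of the shoot level under CK. The rule capped Root TRAP CK levels and set no limit on root total RNA, so this order partly follows from the choice of genes. Summed over the 32 photosynthesis genes, most of them not members, TRAP RNA held more, though not for every gene. They had 2684 to 5049 TPM in Root TRAP MgD and 3031 to 6184 TPM in Root TRAP CK libraries. In Root Total MgD and Root Total CK libraries they had 964 to 1667 TPM and 1978 to 2264 TPM. In each root total library the TPM of a member was divided by its mean in the shoot total libraries of the same treatment. The median over the 98 genes was 0.260%, 0.466% and 1.24% in the 3 Root Total MgD libraries and 1.05%, 1.05% and 1.38% in the 3 Root Total CK libraries, or 0.655% ± 0.516 under MgD and 1.16% ± 0.192 under CK (SD, n = 3 each). MgD replicate 3 lay within the range of the CK libraries, and the other MgD libraries lay below it. Without replicate 3 the MgD mean was 0.363%. By the deposited TPM column in place of the counts, the median of MgD replicate 3 was 0.802%, which is below all 3 CK libraries. Summed over the set, the level was 66.3, 96.9 and 211 TPM in Root Total MgD libraries and 173, 183 and 222 TPM in Root Total CK libraries. Libraries of root TRAP RNA under MgD, summed above, reached at most 16.8 TPM.

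The percentages were more spread out among members in Root Total MgD libraries. There, 19, 12 and 5 members were above 3 times the library median and 14, 12 and 11 were more than 3 times below it, of which 9, 7 and 5 were listed at 0. In Root Total CK libraries, 2, 3 and 2 members were above 3 times the median and 2, 1 and 0 were more than 3 times below it, of which 1 was listed at 0 in replicate 1. These counts were not tested, and MgD libraries held fewer counts of the set. Across the members, log2 levels in a Root Total MgD library followed shoot total levels with Pearson's r of 0.41 to 0.57, and in a Root Total CK library with r of 0.71 to 0.78. Without EXPA11 these ranges were 0.47 to 0.61 and 0.80 to 0.86. They are descriptions over 98 or 97 genes that share libraries, and root total counts of the whole set were few, from 1364 to 2122 per MgD library and from 3819 to 7661 per CK library.

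EXPA11 stood apart. Its root total level was 18.7%, 22.1% and 25.9% of the shoot level in MgD libraries and 33.9%, 32.9% and 28.7% in CK libraries. It had 13.1, 15.5 and 18.1 TPM in Root Total MgD and 20.04, 19.4 and 17.0 TPM in Root Total CK libraries, against 0.391, 0.616 and 0 TPM in Root TRAP MgD and 0.109, 0 and 0.684 TPM in Root TRAP CK libraries. The gene was thus detected in every root total library and near 0 in root TRAP RNA of the same treatments, while in shoots its TRAP level was the higher one. Its low Root TRAP CK level was a condition of membership, and the root hair genes RHD6 and EXPA7 were also far lower in root TRAP than in root total RNA. After it, by the CK mean, came APL1 (3.81%), KCS6 (3.00%), AT4G29030 (2.92%), FUM2 (2.88%) and CRR3 (2.62%). KCS6 had 5.92, 5.59 and 4.60 TPM in Root Total MgD and 10.8, 13.1 and 7.38 TPM in Root Total CK libraries. Among the lowest CK percentages were those of AT2G34655 (0.505%), whose shoot mean rests on 1 library, and PnsB3 (0.566%).

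**Figure D5:**
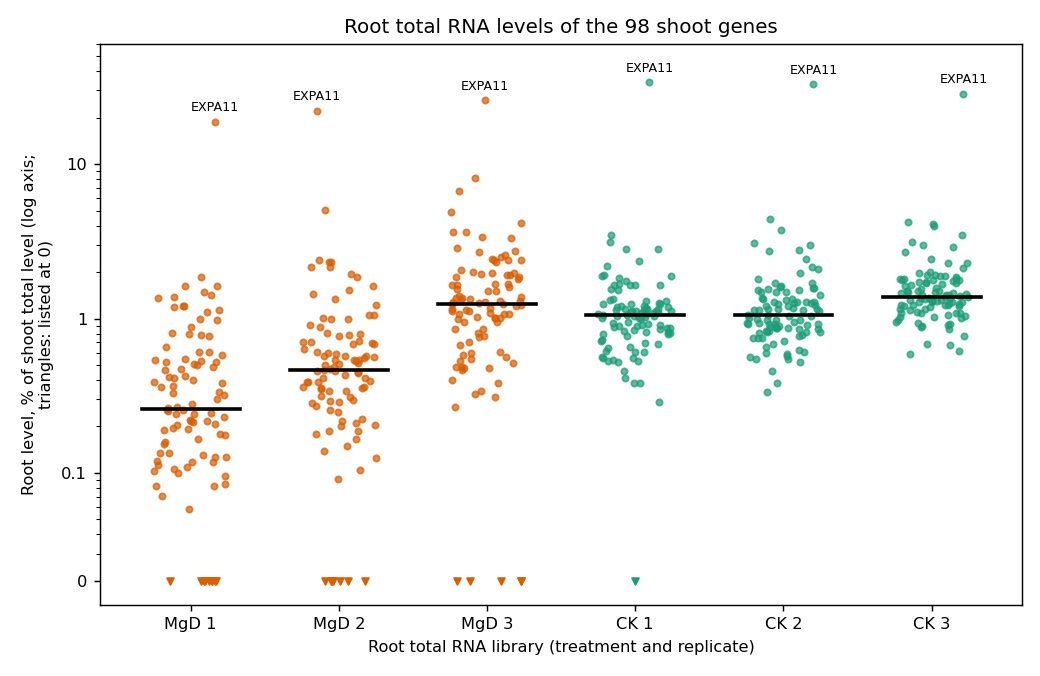
Root total level of each member as a percentage of its shoot total level in the same treatment, on a log axis, for the 3 MgD libraries (left) and the 3 CK libraries (right), with the median as a black bar and members listed at 0 as triangles. MgD replicates 1 and 2 have low, widely spread values with medians of 0.260% and 0.466%, the CK libraries form a tighter band with medians of 1.05% to 1.38%, and EXPA11 is at the top of every library.

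Comparing MgD with CK in root total RNA, edgeR called 0 members, as it called 0.0% of the 20311 genes tested. Only 83 of the 98 passed its filter on low counts, and 18 of these had an unadjusted p under 0.05, against 2.48% of all genes. DESeq2 called 0, with 13 at an unadjusted p under 0.05, and limma called 0, with 33 on log2(TPM + 1) and 23 on log2(TPM + 0.1). With no filter, all 98 were tested, 0 were called, 16 had an unadjusted p under 0.05 and the median log2 fold change was -0.98. The median over all genes that passed the filter was -0.01. By TPM, 24 of the 98 members had every MgD library below every CK library and 0 had every one above, against 4.79% and 5.05% of the genes tested. KCS6 was one of them, at -0.99 ± 0.29 SE (edgeR unadjusted p = 0.00439). NdhN had 0.0414, 0.145 and 0 TPM in Root Total MgD and 0.773, 0.574 and 0.687 TPM in Root Total CK libraries (-3.16 ± 0.83 SE, edgeR unadjusted p = 0.00316), and was the 1 member called when all 24 libraries entered the model. AT2G10940 had 1.89, 4.11 and 13.03 TPM in Root Total MgD and 14.2, 16.1 and 18.9 TPM in Root Total CK libraries (-1.53 ± 0.56 SE), again without overlap. The photosynthesis genes summed to 964 to 1667 TPM in Root Total MgD and 1978 to 2264 TPM in Root Total CK libraries, with none at 0, and the part of leaf messages as a whole in these differences was not tested. Leaving out replicates 1, 2 and 3 in turn gave medians of -0.60, -0.88 and -1.56 over the members tested, with 0 called each time.

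The gene lists of leaf functions differed in how many members they held, from 9 of the 16 nuclear NDH subunits described above to none in other lists. Of the 32 photosynthesis genes, 2 were members (CA2 and LHCB4.3) and the other 30 exceeded 0.5 TPM in Root TRAP CK libraries. The 12 wax and cutin genes included 2 members (KCS6 and CER1), the 10 defence genes 2 (PR1 and LOX2) and the 15 leaf regulators 1 (GPRI1). None of the 5 glucosinolate hydrolysis genes, the 11 stomatal genes or the 11 root markers was a member, and all stomatal genes were below 50 TPM in Shoot Total CK libraries. Of the 11 wax and cutin genes tested, 6 were higher in shoot TRAP than in shoot total RNA under MgD, 1 was lower and 4 were not called. Besides the 2 members, LTPG1, a lipid-transfer protein of the cuticle, was higher (1.51 on the log2 scale), as was CER4 (1.05), a reductase of wax alcohol synthesis. In the other lists, 10 of 11 stomatal genes were at least 2-fold lower in TRAP RNA (median log2 fold change -2.02 over the list). Of the 32 photosynthesis genes, 9 were higher and 5 lower, and of the 14 leaf regulators tested 1 was higher and 5 lower. Among the 10 defence genes 1 was higher and 1 lower, and among the 5 glucosinolate hydrolysis genes 2 and 2. The 2 root markers tested were lower. Over all 19341 genes tested, 22.1% were called higher and 23.7% lower, and 2263 were called at least 2-fold lower. The part of cell type in these ratios was not tested. CA1, a carbonic anhydrase at 1389 TPM in Shoot Total CK libraries, missed the root limit narrowly with 0.534 ± 0.289 TPM in Root TRAP CK libraries (SD, n = 3).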

How the data were processed

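Of the 24 libraries in 8 groups of 3, total and TRAP RNA of roots and shoots were analysed under MgD and CK, and the 8 libraries listed as removed were left out. The deposited counts are whole reads per gene without normalization, and the deposited TPM are the authors' length-normalized values. Per the submitters' processing notes the reads passed through FastQC, Trimmomatic, STAR 2.7.6a and Subread 2.0.0. No genome build is named in the sources used here, so no coordinates or sequences were used. Between 81.6% and 92.4% of low counts (up to 40) were even, as when mates are counted one by one, so counting error is larger than a count implies. In 23 libraries counts and TPM came from the same reads, and in Root Total MgD replicate 3 the count column holds 6147531 reads and the TPM column 11727584 (tolerance 0.05 read). TPM of that library were recomputed from its counts.

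Counts of the 12 libraries of a tissue entered one edgeR 4.0.16 quasi-likelihood model (R 4.3.3, filterByExpr, TMM, robust), with Benjamini-Hochberg adjustment over all genes tested and a threshold of 0.05. The SE of a log2 fold change is its size divided by the root of the F statistic. The model was checked on simulated counts. Alternatives were DESeq2 1.42.0, limma 3.58.1 on log2(TPM + 1) and log2(TPM + 0.1), no filter, other scaling, a replicate block, all 24 libraries, each replicate left out, and other thresholds. A floor of 3 counts was used for a count of 0. Product names and symbols came from RefSeq (TAIR10.1), which matched 98 of 98 members, 58 of them with a symbol. Members, lists and function groups were chosen with earlier results of these data known. The text names the 12 most abundant members, the 3 nearest each threshold on either side, the 8 largest called rises and falls in shoot TRAP against total RNA, the 4 largest in either direction after MgD in each shoot RNA type, the 6 highest and 3 lowest root percentages, members of the lists and any member that reached 2 TPM in a Root TRAP MgD library. A gene that this rule names is not reported here. Other genes named, among them the most variable ones and those listed within function groups, were chosen after their values were seen.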

Additional observations from a re-analysis of the deposited data

How the results depend on the processing

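The count of members called in shoot TRAP against total RNA under MgD was 53 and ranged from 36 to 54 when 1 replicate number was left out of every group. Among members of at least 100 TPM it was 22 of 44, and with a difference of at least 2-fold it was 26. DESeq2 called 55, of which 52 were among the 53, limma 51 at either pseudocount, of which 49 were, and a model of all 24 libraries 38, of which 38 were. After MgD, counts stayed at 0 in shoot TRAP, shoot total and root total RNA and in the interaction with any replicate left out (0 to 0). The exceptions among all alternatives were 1 member (CIPK20) in shoot TRAP RNA with a replicate block and 1 (NdhN) in root total RNA with all 24 libraries. Replicate numbers were not taken to pair the libraries, since not every pair of same-numbered libraries correlated over 0.1 in their deviations from the group means. The range was -0.27 to 0.323 in shoots and -0.03 to 0.426 in roots by label number, and 0.049 to 0.333 in shoots and 0.018 to 0.426 in roots by original library number, where all were positive. With the replicate block 65 members were called in shoot TRAP against total RNA, or 61 by the submitters' original library numbers, and CIPK20 was the 1 call it added in the comparisons after MgD. In the interaction, members at an edgeR unadjusted p under 0.05 went from 2 to 18 with the block by label number and stayed at 2 by original number. The set itself held 44 genes at 100 TPM and 178 at 25 TPM, and 94 to 102 with a replicate left out. In Root TRAP MgD libraries, 90 to 94 members stayed at or below 0.5 TPM with a replicate left out. The root percentage was 0.363% to 0.852% under MgD and 1.05% to 1.21% under CK with a replicate left out, and 0.939% under CK by TMM-scaled CPM. The cause of these shifts was not tested. Root Total MgD replicate 3 is the shallowest library, where a count of 0 allows at least 0.488 CPM. The 2-fold requirement, leaving out EXPA11 and leaving replicates out of the root percentage were added after the data were seen.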
